A study of Sorghum bicolor with 4 samples.

Results

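The genes described here are the 6 sorghum orthologues of the rice primary wall cellulose synthase (CesA) genes and the mixed-linkage glucan synthase gene CslF6 (Sobic.007G050600). They were chosen by identifier, 7 genes out of the 34129 gene identifiers in the deposited table. Each of the 7 had a single row that it shared with no other identifier. The table gives FPKM, which by definition divides the fragments of a locus by its length and by the mapped fragments of the library. How the libraries were scaled here is not given. Because of the division by length, levels of different genes may be set side by side.

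RNA was sequenced from the middle stem internode of sweet sorghum, a sorghum grown for its sugary stalk, in 2 libraries at physiological maturity and 2 libraries at the milk stage, when the grain is still filling. All 4 libraries came from the line ICSA38, grown in an open field. The labels name no treatment and no genetic change, and they do not say whether the libraries of a stage came from separate plants. The authors deposited 1 combined FPKM value per locus and stage. No value below therefore has a standard deviation, no difference has a test, and how far the libraries of a stage differed among themselves is unknown.

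Cellulose is spun into the wall by complexes of CesA proteins in the plasma membrane, each of which extends glucan chains from UDP-glucose. In Arabidopsis and rice, separate sets of CesA genes serve the thin primary wall laid down while cells grow and the thick secondary wall of xylem and fibre cells. CslF6 belongs to a grass branch of the same superfamily and makes most of the mixed-linkage glucan of grass walls, as shown in barley and rice. In the stem the primary wall set is known mainly from elongating internodes.

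The primary wall genes differed between the stages by unequal amounts, and most of the difference in their summed FPKM lay in a single gene. Sobic.002G118700, a cellulose synthase gene, was at 107 FPKM at maturity and 443 FPKM at the milk stage, 4.12-fold lower after adding 1 FPKM to each value. The 5 other CesA genes were lower by 1.10-fold to 1.81-fold as deposited, and Sobic.002G075500 and Sobic.002G094600 among them were higher when both stages were set to equal sums. CslF6 was at 22.0 FPKM at maturity and 22.9 FPKM at the milk stage, a log2 difference of -0.06 that became 0.20 with equal sums. In bulk stem tissue, fewer cells of a type and less RNA per cell cannot be told apart.

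**Figure D1:**
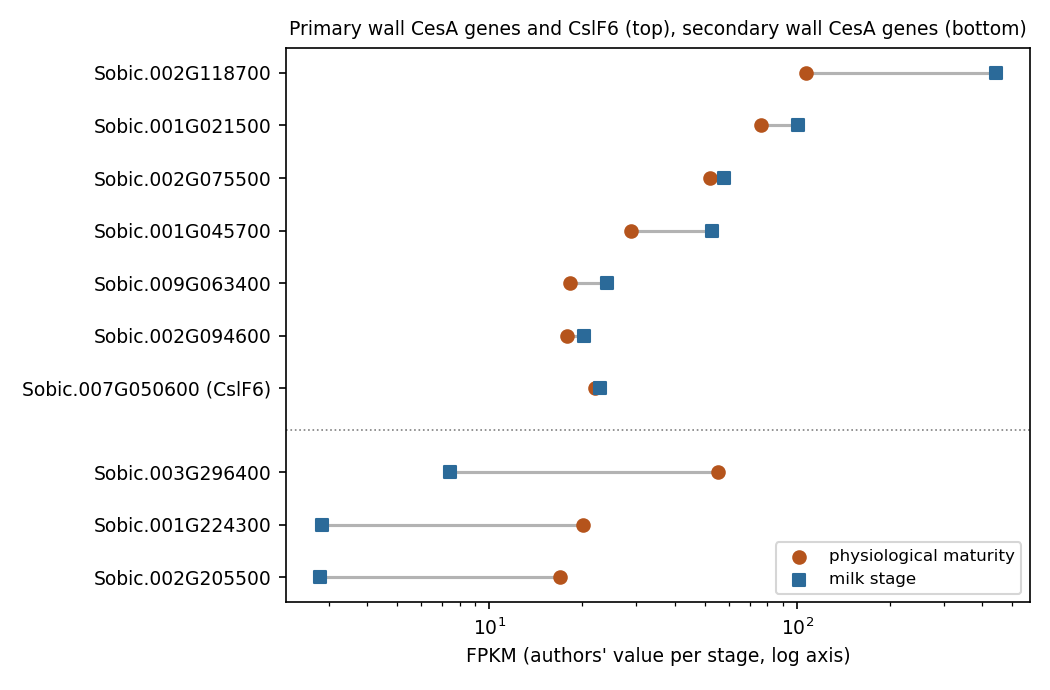
FPKM of each gene on a log axis, 1 value per stage (circles, physiological maturity; squares, milk stage), for the 7 primary wall genes above the dotted line and 3 secondary wall CesA genes below it. Sobic.002G118700 stands apart at 107 FPKM at maturity and 443 FPKM at the milk stage, and the secondary wall genes were higher at maturity.

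Sobic.002G118700 was the most abundant of the 7 genes at both stages. It ranked 1129th of 34458 loci at maturity and 227th at the milk stage, and a rank does not depend on a scaling factor between the stages. Its log2 difference was -2.04 with a pseudocount of 1, and 2.15% of the 18749 loci with at least 1 FPKM at either stage had a lower one. Among the 788 of these loci whose mean FPKM was within 2-fold of its own, 4.19% had a lower difference.

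The next gene, Sobic.001G021500, was at 76.0 FPKM at maturity and 100.4 FPKM at the milk stage, a log2 difference of -0.40. Sobic.002G075500 was at 52.2 FPKM at maturity and 57.7 FPKM at the milk stage, a log2 difference of -0.14 that became 0.12 with equal sums. Both encode cellulose synthases by the orthology that defined the set, and both kept their place in the order of the genes.

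Sobic.001G045700 had the second largest difference of the set. It was at 28.8 FPKM at maturity and 52.9 FPKM at the milk stage, a log2 difference of -0.86 that did not reach 2-fold under any pseudocount or scaling tried. At the milk stage its level was close to that of Sobic.002G075500, whereas at maturity it was well below it: the ratio of Sobic.001G045700 to Sobic.002G075500 was 0.552 at maturity and 0.918 at the milk stage.

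The least abundant CesA genes were Sobic.009G063400 and Sobic.002G094600. Sobic.009G063400 was at 18.3 FPKM at maturity and 24.0 FPKM at the milk stage, a log2 difference of -0.38. Sobic.002G094600 was at 17.8 FPKM at maturity and 20.3 FPKM at the milk stage, a log2 difference of -0.18 that became 0.07 with equal sums. CslF6 lay just above Sobic.009G063400 at maturity and just below it at the milk stage, the only exchange of places among the 7 genes. Without a spread between libraries it cannot be said which neighbours in this order differ.

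Against all loci, the count of large differences among the 7 genes was not high. At least 2-fold apart in either direction was 1 of the 7 genes, against 22.3% of the loci compared. That gene, Sobic.002G118700, was lower at maturity, as were 10.7% of the loci by at least 2-fold and 2.28% by at least 4-fold. At least 2-fold higher was 0 of 7, against 11.5% of the loci. With the values as deposited, 7 of 7 were lower by some amount, against 48.0% of the loci. With equal sums 4 of 7 were, a count that cannot be set against the 48.0%, which holds for the deposited values only. The median log2 difference of the 7 genes was -0.38, and that of all loci compared was 0.04. The range of all loci from the 25th percentile (-0.48) to the 75th (0.57), held 5 of the 7 genes. Equal sums moved the median of all loci up by 0.24, and the 7 genes moved up with it. All 7 lay below that median both as deposited and with equal sums. Equal sums applies a single factor to all loci of a stage. It could hardly change the side of the median on which a gene lay, so it adds no support. The genes were proposed with results of this table known, so these counts describe the set and do not test it.

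**Figure D2:**
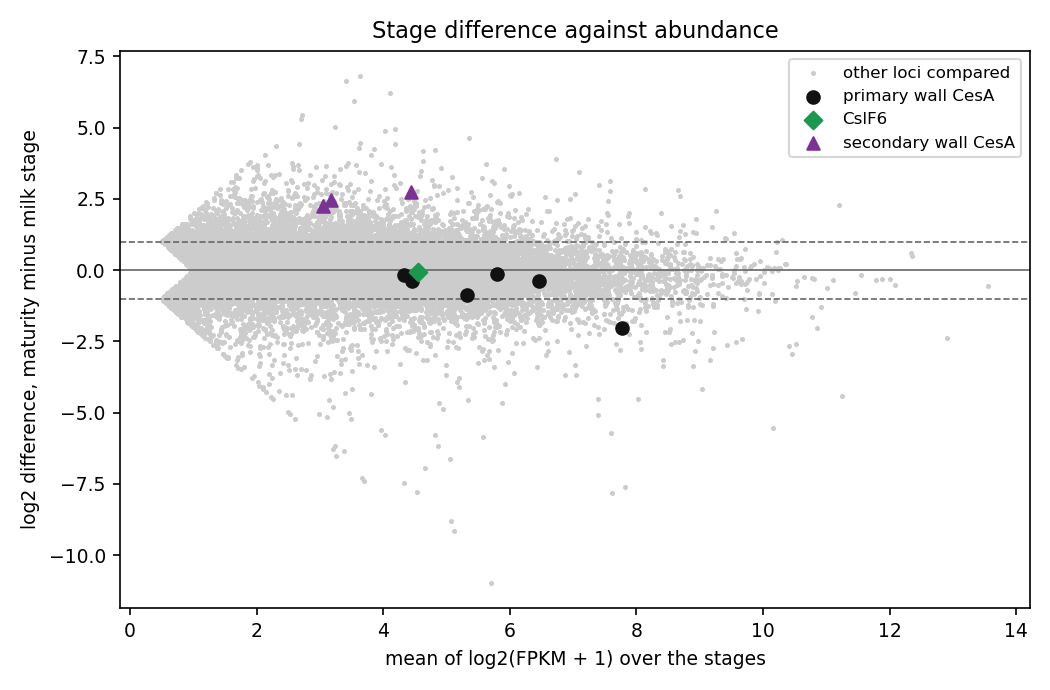
Log2 difference of maturity minus milk stage against the mean of log2(FPKM + 1), for the loci with at least 1 FPKM at either stage (grey), with dashed lines at 2-fold. The primary wall CesA genes (black circles) and CslF6 (green diamond) lie, as deposited, between the line at 0 and the lower 2-fold line except Sobic.002G118700 at -2.04, while the secondary wall CesA genes (purple triangles) lie above 2.

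The make-up of the primary wall CesA transcripts was more even at maturity. The 6 CesA genes summed to 299.7 FPKM at maturity and 698 FPKM at the milk stage, 2.33-fold lower, and Sobic.002G118700 made up 84.3% of the difference in FPKM. Without it, the sum was 193 FPKM at maturity and 255 FPKM at the milk stage, 1.32-fold lower. With equal sums the full sum was 1.94-fold lower, under the 2-fold limit.

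Shares within a stage do not depend on a factor between the stages. Sobic.002G118700 held 35.6% of the CesA sum at maturity and 63.4% at the milk stage. It was 1.40-fold above the next gene, Sobic.001G021500, at maturity and 4.41-fold above it at the milk stage. The highest CesA gene was 5.98-fold above the lowest at maturity and 21.8-fold at the milk stage. With Sobic.002G118700 set aside, the highest was 4.27-fold above the lowest at maturity and 4.94-fold at the milk stage. Sobic.001G021500 held 25.4% of the sum at maturity and 14.4% at the milk stage, and Sobic.002G075500 held 17.4% at maturity and 8.26% at the milk stage. Among the 5 genes left when Sobic.002G118700 is set aside, Sobic.001G021500 held 39.4% at maturity and 39.3% at the milk stage, and Sobic.001G045700 held 14.9% at maturity and 20.7% at the milk stage.

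**Figure D3:**
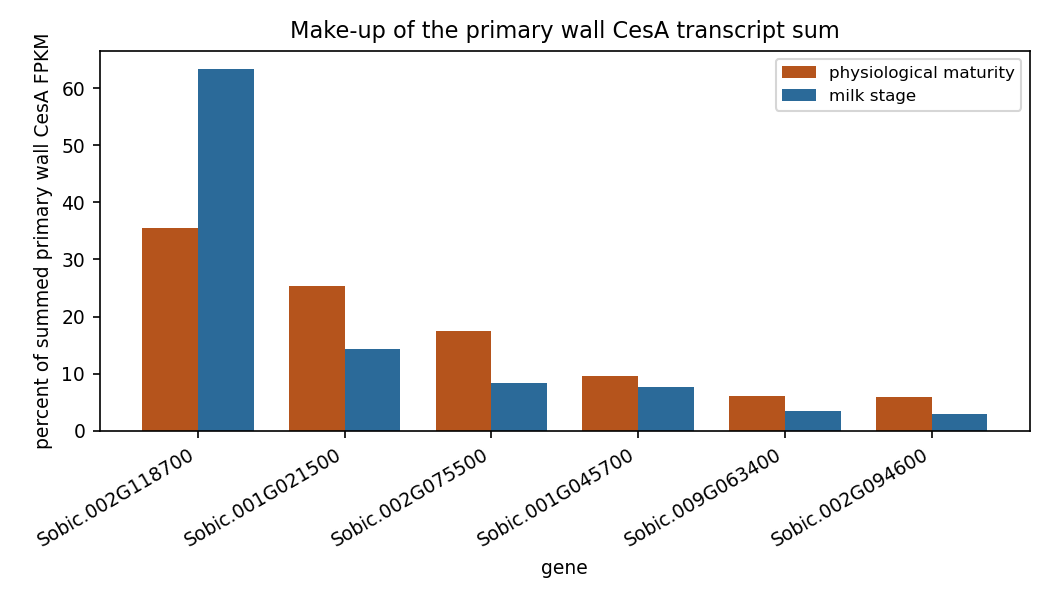
Percent of the summed FPKM of the 6 primary wall CesA genes held by each gene at physiological maturity (left bar of each pair) and at the milk stage (right bar), 1 value per stage. The share of Sobic.002G118700 was 35.6% at maturity and 63.4% at the milk stage, and each of the 5 other genes had a larger share at maturity.

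As deposited CslF6 had the smallest log2 difference of the 7 genes in size, but not with equal sums or quantile normalization. Its level was equal to 7.34% of the CesA sum at maturity and 3.28% at the milk stage, a ratio 2.24-fold higher at maturity. Against the CesA sum without Sobic.002G118700, its level was equal to 11.4% at maturity and 8.97% at the milk stage, so most of the change in this ratio came with that 1 gene. CslF6 ranked 5971st of all loci at maturity and 5785th at the milk stage.

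**Figure D4:**
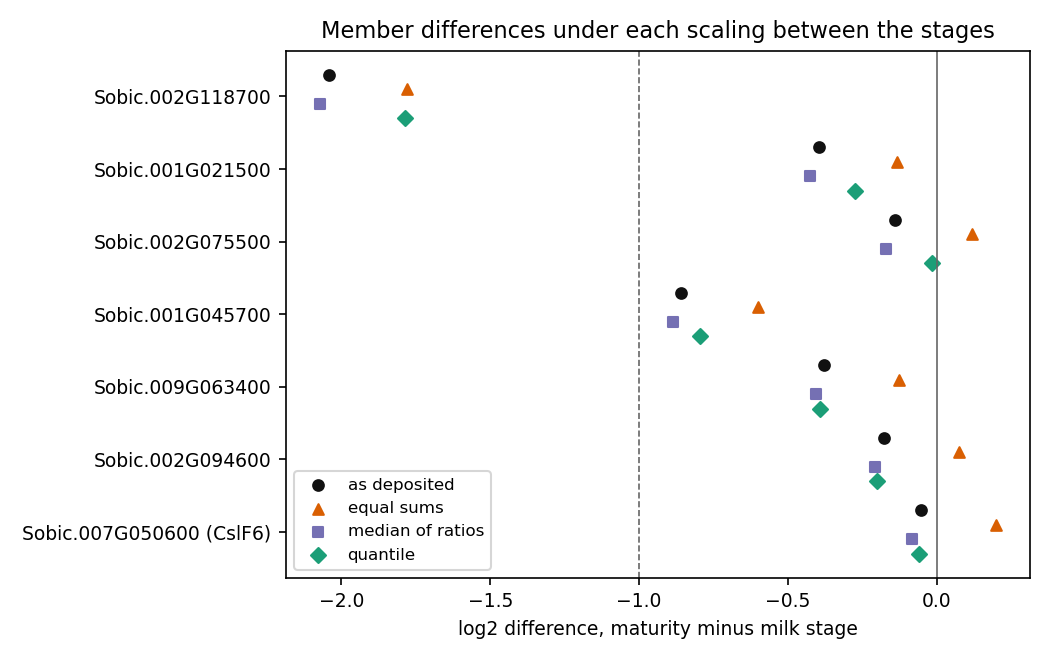
Log2 difference of maturity minus milk stage for each of the 7 genes as deposited and under 3 other scalings between the stages, with lines at 0 and at 2-fold lower. Sobic.002G118700 lies between -2.07 and -1.78, and with equal sums CslF6, Sobic.002G075500 and Sobic.002G094600 lie above 0.

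The secondary wall CesA genes, known by their published identifiers, were higher at maturity, whereas the primary wall set was lower as deposited. In that set only Sobic.002G118700 differed by at least 2-fold. With equal sums Sobic.002G075500, Sobic.002G094600 and CslF6 were higher at maturity, but only by 1.08-fold, 1.05-fold and 1.15-fold. The secondary wall genes were then higher by 5.50-fold to 7.90-fold. Sobic.003G296400 was at 55.1 FPKM at maturity and 7.42 FPKM at the milk stage. Sobic.001G224300 was at 20.2 FPKM at maturity and 2.86 FPKM at the milk stage, and Sobic.002G205500 at 16.9 FPKM at maturity and 2.81 FPKM at the milk stage. All 3 were at least 2-fold higher at maturity, with log2 differences of 2.74, 2.46 and 2.24, against 11.5% of all loci. Their sum was 92.3 FPKM at maturity and 13.1 FPKM at the milk stage, so the primary wall sum was 3.25 times the secondary wall sum at maturity and 53.3 times at the milk stage. Without Sobic.002G118700 these ratios were 2.09 at maturity and 19.5 at the milk stage. The secondary wall genes held 23.5% of the FPKM of all 9 CesA genes at maturity and 1.84% at the milk stage. They also mark cells forming secondary walls, and the part of such cells in the differences of the primary wall genes was not tested.

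Sucrose synthase releases UDP-glucose, the substrate of the CesA and CslF6 enzymes. Of the 2 sucrose synthase genes examined, Sobic.001G344500 was at 209 FPKM at maturity and 77.2 FPKM at the milk stage. The other, Sobic.010G072300, was at 720 FPKM at maturity and 543 FPKM at the milk stage. Both were higher at maturity, 1 of the 2 by at least 2-fold, against 11.5% of all loci.

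Markers of C4 photosynthetic cells, which the green outer stem can hold, gave no common direction. The C4 phosphoenolpyruvate carboxylase gene Sobic.010G160700 was near 0, at 0.142 FPKM at maturity and 0.0632 FPKM at the milk stage. Pyruvate orthophosphate dikinase (Sobic.009G132900) was at 31.9 FPKM at maturity and 11.1 FPKM at the milk stage. The other 2 of the 4 markers each shared a row with a second identifier. The row holding the NADP-malic enzyme gene Sobic.003G036200 was at 82.9 FPKM at maturity and 156 FPKM at the milk stage. The row holding the NADP-malate dehydrogenase gene Sobic.007G166300 was at 58.6 FPKM at maturity and 61.5 FPKM at the milk stage. The 4 rows summed to 173 FPKM at maturity and 229 FPKM at the milk stage, most of it from the 2 shared rows. The 2 markers with rows of their own were higher at maturity, 1 of them near 0. The part of C4 cells in the primary wall values was not tested.

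Likeness was searched only among loci with exactly 1 identifier. Of these, the locus most like Sobic.002G118700 over the 2 stages was Sobic.001G415200. It was at 118 FPKM at maturity and 432 FPKM at the milk stage, a Euclidean distance of 0.15 in log2(FPKM + 1). The one most like CslF6 was Sobic.003G270100, at 21.8 FPKM at maturity and 22.6 FPKM at the milk stage, a distance of 0.02. With 2 values per locus this likeness says only that level and difference were alike. The 3 loci numbered on each side of Sobic.002G118700 in the table were looked at after the values were seen. On the lower-numbered side, Sobic.002G118200 had a log2 difference of 0.04, Sobic.002G118600 had one of -0.13, and the nearest locus, without a gene identifier, was listed at 0 at both stages. On the other side, the nearest locus, also without an identifier, had a log2 difference of -0.50, Sobic.002G119100 had one of -1.88 and Sobic.002G119400 had one of -0.70.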

How the data were processed

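Per the labels' protocols, RNA was extracted with Trizol and the library kit was a stranded one for total RNA. The submitters' processing notes name HISAT2 2.0.5, Bowtie2 2.2.9, Cuffdiff and cutadapt 1.8.1 without their roles. Not given in the sources used here are the genome build, the strand setting, the scaling between libraries and the treatment of reads that match several CesA genes, so reads shared between these related genes could affect any of their values. The authors deposited their FPKM values as 1 column per stage, taken as a combined value from headings that match the sample titles without the replicate number. A limma test was planned for values per library and could not be run. Log2 differences were taken as maturity minus milk stage after adding 1 to each FPKM, over loci with at least 1 FPKM at either stage, a minimum that 7 of the 7 genes passed at both stages. Depth is unknown: low values show steps, but locus lengths are not in the table and fragments could not be recovered. Of the table's identifiers, 0 matched the reference gene table, so no coordinates, sequences or product descriptions were used, and the planned lists by description (other cellulose synthase-like genes, COBRA, endoglucanase, expansin and xyloglucan enzymes) could not be formed. The named genes are the 7 and the comparison and marker genes fixed by published identifier. Also named is the locus nearest in level to the most abundant CesA gene and to CslF6, among loci with exactly 1 identifier. Neighbours of Sobic.002G118700 in the numbering were added after the values were seen. Members and lists were chosen with earlier results of these data known. The calculation was run on simulated data with planted differences and an assumed noise, which can check the code but not the stage differences given here. Alternatives were 3 other scalings, other pseudocounts (0.1 and 0.5), a 4-fold limit, loci with 1 identifier, a 5 FPKM minimum and no filter. As deposited, the FPKM of all loci summed to 666768 at maturity and 800834 at the milk stage, and equal sums set these totals alike. Calculations were made in Python 3.11.15 with pandas 2.3.3, numpy 2.4.6 and scipy 1.17.1, and plots with matplotlib 3.10.9.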

Additional observations from a re-analysis of the deposited data

How the results depend on the processing

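No paired analysis was possible because each stage has 1 combined column, and for the same reason no library could be left out. Of 42 values of the 7 genes under 6 alternatives (2 pseudocounts, plain ratios and 3 scalings), 39 kept their sign. Most of these could not have changed it. A pseudocount or a plain ratio cannot change a sign, and median of ratios moved all 7 genes further down. The 3 values that changed sign were CslF6, Sobic.002G075500 and Sobic.002G094600 with equal sums, which left 4 genes lower at maturity. Equal sums also brought the log2 difference of the primary wall CesA sum from -1.22 to -0.96, short of 2-fold. Quantile normalization brought the log2 difference of the ratio of CslF6 to that sum from 1.16 to 0.98. Without Sobic.002G118700, a choice made after seeing the data, the differences were -0.40 for the CesA sum, 0.35 for the CslF6 ratio and -3.22 for the primary over the secondary wall sum, against -4.04 with it. Over all loci, 3211 were at least 2-fold higher and 1397 lower at maturity with equal sums, 69.7% higher, against 2163 and 2011 and 51.8% as deposited. A 4-fold limit left 416 higher and 427 lower, and Sobic.002G118700 as the 1 member, which was 3.43-fold lower with equal sums and 3.45-fold with quantile normalization, short of 4-fold. Without the filter all 34458 loci were compared. Depth and the spread between libraries are unknown, so no limit can be put on differences as small as that of CslF6.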
